A study of Rattus norvegicus with 36 samples.

Results

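The TG/WT comparison in the standard environment (TG_SE/WT_SE) set 6 striatal libraries of BACHD transgenic rats against 6 of wildtype rats, 12 of the 36 libraries of the series. Libraries were chosen by the genotype and environment in their sample labels, and the genes tested were the 12657 of 23965 whose raw counts averaged 50 or more over all 36 libraries. All animals were male Sprague Dawley rats, and the striatum was taken at 2 months of age. WT_SE animals were wildtype rats from the same breeding of transgenic with wildtype animals. TG_SE animals were heterozygous for a bacterial artificial chromosome that carries the whole human HTT gene with its flanking regulatory sequence and a mutant exon 1 with an expanded mixed CAA/CAG repeat. The transgene is thus driven by human HTT sequence and was not designed to be limited to 1 cell type. SE animals of both genotypes were kept in standard cages and left alone apart from cage cleaning and weighing. The other 24 animals were raised in the enriched environment (EE) or with early maternal separation (written as ELS in the labels), with 6 animals per genotype in each, and they entered the same model. Whole litters were assigned to an environment, and litter is not part of the labels.

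Huntington disease is caused by an expanded CAG repeat in exon 1 of HTT, which lengthens a polyglutamine stretch in the huntingtin protein. The protein is made in nearly all cells, yet the spiny projection neurons of the striatum, which receive cortical and dopaminergic input and form the start of the direct and indirect pathways of the basal ganglia, are lost first. In models of the disease, changes in striatal transcripts precede the loss of neurons, and the comparison addresses which transcripts differ in young animals in the absence of an environmental manipulation.

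Poly(A)-selected RNA was sequenced, and the deposited table gives raw counts per Ensembl gene. Total counts ranged from 10684845 to 19284439 in WT_SE (median 12890153) and from 10785669 to 13423957 in TG_SE (median 12163152). The table does not pair identifiers with symbols, so the striatal origin of the libraries could not be checked with marker genes, and neither the human transgene nor rat Htt was identified among the genes tested. The construct also carries sequence that flanks HTT, and the study removed Msantd1 by hand because that gene lies in the flank. Msantd1 was not identified here and no gene was removed, so a gene carried by the construct may be among those that rose. Genes are given by identifier for the pair with the largest change in each direction and otherwise by their rank. Normalised counts are counts scaled by TMM library size to a common depth. They are compared between libraries but not between genes, since they are not divided by gene length.

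The libraries of the wildtype group were not alike. On the first principal component of the 36 libraries, which held 22% of the variance of log2 normalised counts, the 6 TG_SE libraries had scores from -7.6 to 0.6. WT_SE 1, 3 and 4 had scores of -5.2, -4.2 and 7.7, whereas WT_SE 2, 5 and 6 had scores of 23.9, 21.4 and 40.2. Only 2 of the other 24 libraries, 1 of WT_EE (25.2) and 1 of TG_EE (28.2), lay beyond 20, and the median of the 31 libraries below 20 was -5.5. Of the SE libraries, those set apart were thus all wildtype, and 3 of 6 wildtype libraries were among them. Since this axis runs partly along the comparison, its values are given beside the results that it touches.

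**Figure D1:**
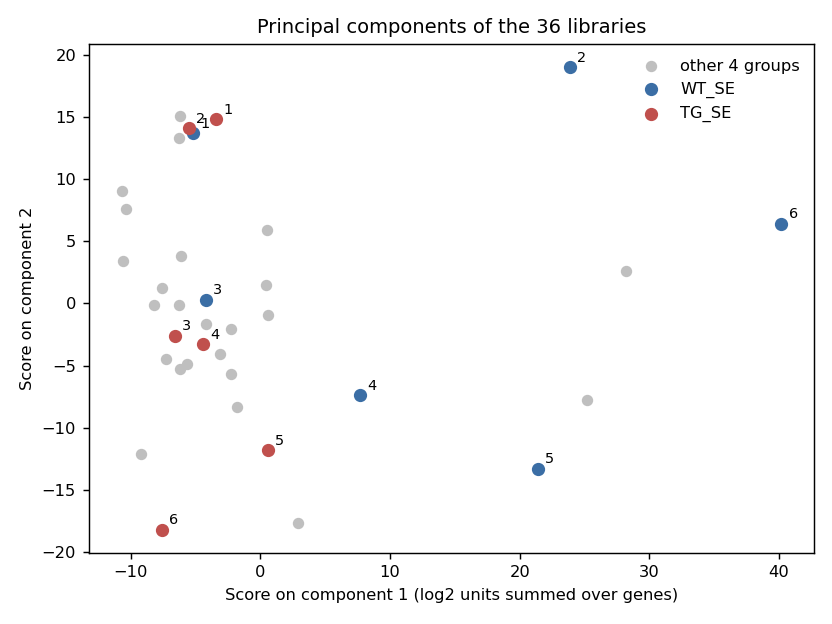
Scores of the 36 libraries on the first (x axis, log2 units summed over genes) and second principal component (y axis), with the animals of WT_SE (blue) and TG_SE (red) numbered and the other 4 groups in grey. WT_SE 2, 5 and 6 lie to the right, at 21.4 or more, and all TG_SE libraries lie at 0.6 or less.

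A limited set of genes differed strongly between the wildtype libraries. In WT_SE 2, 5 and 6, 94 genes (0.743% of the genes tested) were on average at least 2-fold higher than in WT_SE 1, 3 and 4, and 2 genes were at least 2-fold lower. The largest difference among them was 7.12 on the log2 scale, and for 74 of the 94 genes each of the 3 libraries exceeded each of the other 3. The mean log2 ratio of the 94 genes to the WT_SE libraries not set apart was 1.95, 1.54 and 3.01 in WT_SE 2, 5 and 6. It was -0.19, -0.21 and 0.40 in WT_SE 1, 3 and 4, and it lay between -0.36 and 0.05 in TG_SE. WT_EE and TG_EE each held 1 library with the same genes raised, at 1.53 and 2.02. The set was chosen on the WT_SE values, so these levels are a description.

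To account for such differences, the counts of all 36 libraries were fitted by quasi-likelihood in edgeR, with a mean for each of the 6 groups and 5 surrogate variables, which are covariates estimated from the counts themselves. A gene was called when its Benjamini-Hochberg adjusted p did not exceed 0.1 and its log2 fold change reached 0.3 in either direction. In TG_SE/WT_SE, 27 genes were called, which is 0.213% of the genes tested. Of these, 7 genes rose in TG_SE (0.0553%) and 20 fell (0.158%). These are directions of the fitted change, and 1 of the 7 rises, the fifth by size, was lower in TG_SE as measured. The balance of directions turned round in a single fit. With only the 12 SE libraries and no surrogate variables, 13 genes were called, 9 higher and 4 lower. Every other alternative called more genes lower than higher. A few genes carried large changes: 3 of the 27 changed by at least 1 on the log2 scale, 9 by 0.5 to 1 and 15 by less than 0.5. The absolute log2 fold change of the called genes had a median of 0.46 and ranged from 0.31 to 3.52, against a median of 0.057 over all genes tested. Called genes were not confined to weakly measured ones, with a median mean normalised count of 390 (range 81.6 to 12200) against 349 over all genes tested. At an unadjusted p below 0.05 stood 780 genes, 6.16% of the genes tested, of which 387 were higher and 393 lower in TG_SE. In whole striatum, fewer cells of a type and less RNA per cell cannot be told apart.

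The count of calls depended on single animals. Leaving out each of the 12 SE animals in turn gave 13 to 29 called genes. The count was 13 without WT_SE 1 and 16 without TG_SE 1. The fit without WT_SE 1 held 6 surrogate variables, against 5 in the other left-out fits, so its count reflects both changes. Of the 27 genes, 10 were called whichever of the 12 animals was left out, 2 of the rises and 8 of the falls.

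The largest rise was that of ENSRNOG00000010867, and whether this gene lies on the construct was not tested. Its normalised counts in WT_SE had a lowest value of 52.5, a median of 61.5 and a highest value of 71.4, and those in TG_SE had a lowest value of 437, a median of 695 and a highest value of 1029. The 2 groups were far from overlapping, and the spread within TG_SE was the wider one, with means of 61.8 ± 6.90 in WT_SE and 719 ± 218 in TG_SE (SD, n = 6 each). The log2 fold change was 3.52 (SE 0.144, adjusted p = 2.04e-18), an 11.5-fold difference.

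The second rise, ENSRNOG00000011073, was a smaller change of an abundant transcript. In WT_SE the lowest, median and highest normalised counts were 1493, 1591 and 1683, and in TG_SE they were 2166, 2396 and 2620. Every TG_SE library lay above every WT_SE library, and the means were 1590 ± 71.1 and 2392 ± 163 (SD, n = 6 each). The log2 fold change was 0.59 (SE 0.047, adjusted p = 3.13e-10), or 1.51-fold.

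ENSRNOG00000014296 had the largest fall. Normalised counts in WT_SE had a lowest value of 103, a median of 122 and a highest value of 196, and in TG_SE these were 25.0, 43.4 and 53.0. All TG_SE libraries were below all WT_SE libraries, with means of 133 ± 35.2 and 41.9 ± 9.88 (SD, n = 6 each). The log2 fold change was -2.00 (SE 0.244, adjusted p = 6.29e-06).

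ENSRNOG00000004179 fell by a similar amount. Its lowest, median and highest normalised counts were 95.8, 113 and 147 in WT_SE and 19.04, 31.7 and 56.0 in TG_SE. Here, too, the groups were separate, with means of 115 ± 17.4 and 35.7 ± 13.4 (SD, n = 6 each). The log2 fold change was -1.91 (SE 0.245, adjusted p = 1.26e-05). These 4 genes were called under every alternative and every left-out animal in which they were tested.

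**Figure D2:**
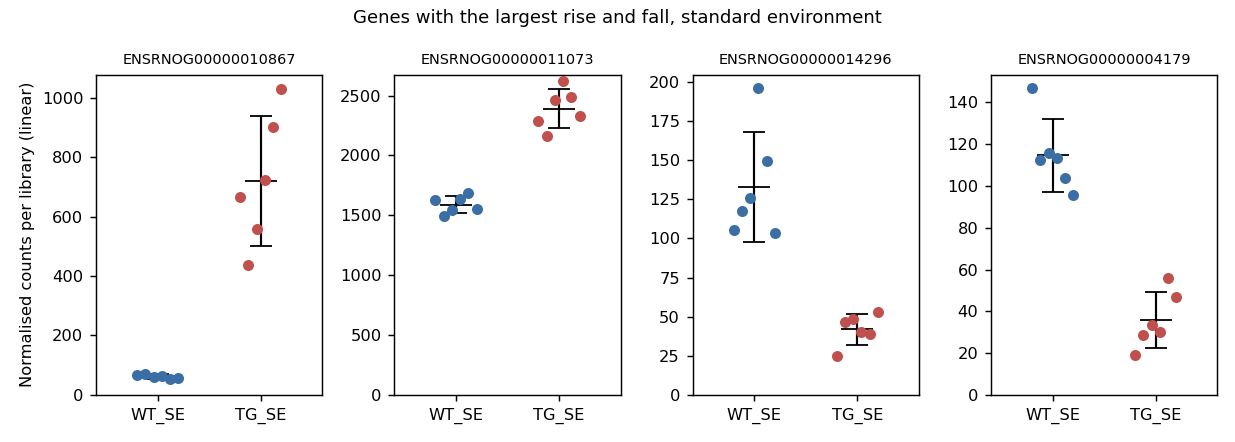
Normalised counts per library (linear y axis from 0) of the pair of genes with the largest rise and the pair with the largest fall, for 6 WT_SE and 6 TG_SE animals. Points are animals, and bars give the mean ± SD. No point of one genotype reaches the range of the other in any panel, and ENSRNOG00000010867 goes from at most 71.4 in WT_SE to at least 437 in TG_SE.

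The remaining rises were moderate. The next pair by rank had mean normalised counts of 252 ± 33.95 and 183 ± 40.1 in WT_SE and of 384 ± 41.9 and 290 ± 46.4 in TG_SE, with log2 fold changes of 0.52 and 0.51. The sixth and seventh rise went from 1558 ± 74.2 to 2076 ± 73.3 and from 705 ± 49.5 to 878 ± 69.3, with log2 fold changes of 0.35 and 0.31 (SD, n = 6 each). In all 4 of these genes the lowest TG_SE library was above the highest WT_SE library. The fifth rise was the exception. Its measured values ran from 79.6 to 245 in WT_SE (mean 130 ± 62.2) and from 89.8 to 133 in TG_SE (mean 107 ± 15.7), so that the measured log2 difference was -0.18. The fit with surrogate variables gave a log2 fold change of 0.46 (adjusted p = 0.0729), whereas it was -0.24 with library runs as covariate. Over 32 fits, the reported one and all alternatives included, it was positive in 26 and negative in 6, and the gene was called in 7. This gene was 0.81 higher on the log2 scale in WT_SE 2, 5 and 6 than in WT_SE 1, 3 and 4, the largest such difference among the called genes.

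Among the falls, most ranges touched. The third fall went from a mean normalised count of 274 ± 36.5 in WT_SE to 162 ± 24.4 in TG_SE (SD, n = 6 each), with a log2 fold change of -0.81 (adjusted p = 8.22e-07), and was called in all 32 fits. The tenth fall went from 699 ± 57.3 to 511 ± 85.1, with a log2 fold change of -0.46. With the 2 largest falls, these were the 4 of 20 in which no TG_SE library reached the WT_SE range. In the other 16 the TG_SE and WT_SE ranges overlapped.

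Over all genes tested, 61 (0.482%) had no overlap between the 6 TG_SE and the 6 WT_SE libraries in measured values, 38 of them higher and 23 lower in TG_SE. These included 10 of the 27 called genes, 6 of 7 rises and 4 of 20 falls. The 51 genes that did not overlap but were not called had a median absolute measured log2 difference of 0.29, and 35 of them stood at an unadjusted p below 0.05. The measured log2 difference had the sign of the fitted one in 26 of 27 called genes, against 67.8% of all genes tested. Its absolute median was 0.59 in the rises and 0.30 in the falls, whereas the fitted medians were 0.51 and 0.45. The falls were thus larger as fitted than as measured.

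**Figure D3:**
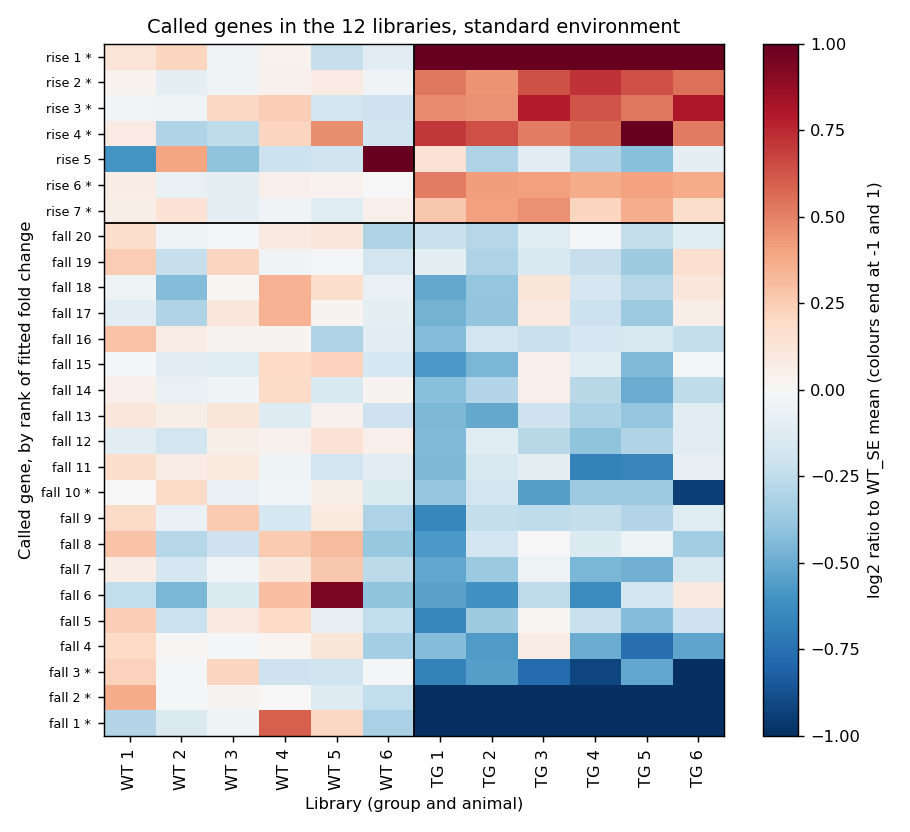
Measured log2 ratio of normalised counts to the WT_SE mean (colour, with colours ending at -1 and 1) for the 27 called genes (y axis, by rank of fitted fold change) in the 12 SE libraries (x axis). Asterisks mark the 10 genes whose groups do not overlap. Rise 5 is the one row whose measured difference runs against its call, through WT_SE 2 and WT_SE 6.

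Each run of 6 consecutive library numbers held 1 library of every group and thus 1 TG_SE and 1 WT_SE library. The labels do not say what a run is, but the second principal component shifted with it, from a median score of 11.15 in the first run to -11.95 in the fifth. In the sixth run the median was -3.1, and WT_SE 6 (6.4) and TG_SE 6 (-18.2) had its highest and lowest scores. Within runs, 6 of the 7 rises were higher in the TG_SE library in 6 of 6 runs, and the fifth rise in 2 of 6. Of the 20 falls, 4 were lower in the TG_SE library in 6 of 6 runs, 13 in 5 of 6, 1 in 4 of 6 and 2 in 3 of 6. The called genes at 6 of 6 are those whose groups did not overlap. For them any pairing of libraries gives 6 of 6, so the runs add nothing. The share of all genes tested at each count is not given here.

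With runs as covariate in place of surrogate variables, the same counts gave 144 called genes (1.14% of the genes tested), 45 higher and 99 lower in TG_SE. Of the 27 genes, 12 were also called in this fit, 6 rises and 6 falls, and 132 of the 144 were not called with surrogate variables. The rises and falls of this fit differed in size and in their levels within WT_SE. The 45 higher genes had a median log2 fold change of 0.38, against 0.27 with surrogate variables, and none of them was at least 2-fold higher in WT_SE 2, 5 and 6 than in WT_SE 1, 3 and 4. The 99 lower genes had a median log2 fold change of -0.74, against -0.14 with surrogate variables, and 39 of them fell by more than 1 on the log2 scale. Of these 99 genes, 45 were at least 2-fold higher in WT_SE 2, 5 and 6 than in WT_SE 1, 3 and 4. High values in those libraries raise the WT_SE mean, which by itself favours a call as lower over one as higher. This split of the calls is therefore a description. With surrogate variables these 45 of the 99 lower genes had a median log2 fold change of -0.02, 25 were negative and 3 stood at an unadjusted p below 0.05. Here edgeR and DESeq2 with the same surrogate variables both called 0. Of all genes tested, edgeR called 0.213% and 6.16% stood at that p, so these counts do not set the 45 genes apart.

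Without the 5 libraries set apart, an alternative chosen after the data were seen, the fit with runs called 8 genes, 3 higher and 5 lower. Of the 144 genes, 6 were called there, 2 higher and 4 lower, in a fit with fewer libraries. All 45 higher genes kept their direction, with a median log2 fold change of 0.33 (0.38 with all libraries). Of the 99 lower genes 98 kept theirs, with a median of -0.26 (-0.74 with all libraries). With surrogate variables, 6 in this fit, the same 31 libraries gave 31 called genes, 6 higher and 25 lower. Of these, 19 were among the 27 (3 rises and 16 falls). With neither runs nor surrogate variables the 31 libraries gave 7 called genes. A further alternative that left out only WT_SE 2, 5 and 6 and kept surrogate variables gave 16 called genes, 13 of them among the 27. In all 4 of these fits, 5 of the 27 genes were called, 2 rises and 3 falls, and all 27 kept the direction of their change. What sets the 5 libraries apart was not tested.

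**Figure D4:**
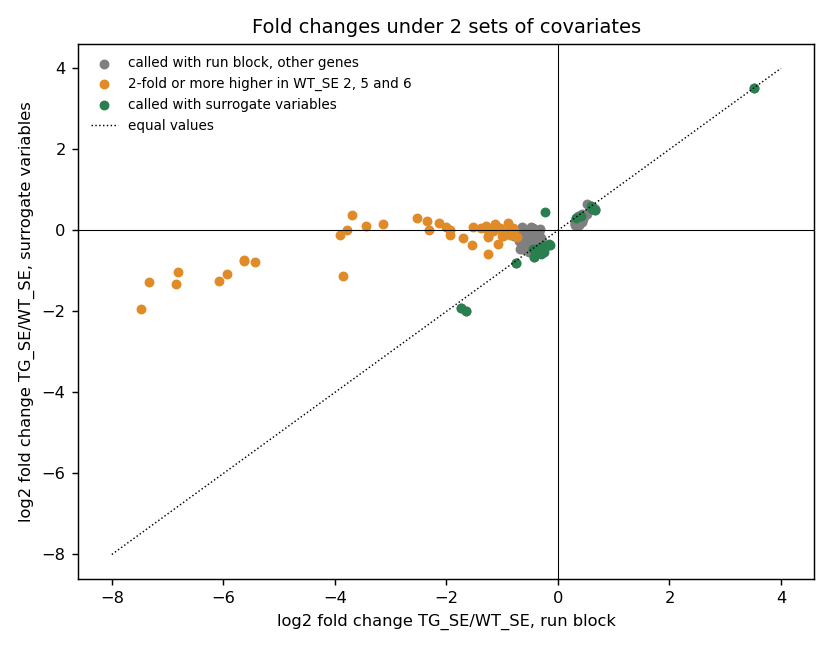
Log2 fold change TG_SE/WT_SE with library runs as covariate (x axis) against that with 5 surrogate variables (y axis) for the genes called in either fit. Orange points are genes at least 2-fold higher in WT_SE 2, 5 and 6 than in the other 3 WT_SE libraries, green points are the 27 genes called with surrogate variables, and the dotted line marks equal values. The orange points reach -7.47 on the x axis but lie much nearer 0 on the y axis. The green points lie nearer the dotted line on this scale, but all falls among them are smaller on the x axis than on the y axis. Fall 5 is at -0.30 on the x axis and -0.58 on the y axis, and rise 5 changes sign, from 0.46 on the y axis to -0.24 on the x axis.

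The 94 genes that were raised in WT_SE 2, 5 and 6 show the same contrast between the fits. As measured, 92 of the 94 were lower in TG_SE, with a median log2 difference of -0.81. The genes were chosen as raised in WT_SE libraries, which by itself favours lower measured values in TG_SE. With surrogate variables, 33 of the 94 had a negative log2 fold change and the median was 0.09. At an unadjusted p below 0.05 stood 8 of them, and edgeR and DESeq2 both called 0. With 6.16% of all genes tested at that p and 0.213% called by edgeR, the contrast lies in the fold changes and not in these counts. The first surrogate variable lay between 0.297 and 0.566 in the 5 libraries set apart and was at most 0.098 in the others. Adjusting for it absorbs differences along that axis, so fold changes nearer 0 in the 94 genes, the 45 above included, are partly built in. This variable had a mean of 0.191 in WT_SE and -0.058 in TG_SE, and 29.3% of its variance lay between groups. For the third and the fourth surrogate variable this share was 31.5% and 19.8%, and the TG_SE mean minus the WT_SE mean was 0.172 and -0.065. For the second and the fifth the share was 3.72% and 15.5%, and the difference in means was 0.068 and 0.031. The shares are over all 6 groups, not along TG_SE/WT_SE alone, and are not compared with those of an unrelated covariate. Since the TG_SE and WT_SE means differed, most for the first surrogate variable, the adjustment was not independent of the comparison. The SD of log2 normalised counts between animals had a median over genes of 0.157 in WT_SE, of 0.150 in TG_SE and of 0.134 in the 3 WT_SE libraries not set apart.

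The same contrast was read in EE and in ELS animals, none of which belonged to an SE group, although the surrogate variables were estimated over all libraries together. In TG_EE/WT_EE, 52 genes were called (0.411% of the genes tested), and in TG_ELS/WT_ELS 17 genes (0.134%). Without the 5 libraries set apart, 2 of which were EE libraries, 22 genes were called in EE. Of the 27 SE genes, 27 had the same direction in EE and 26 in ELS, against 56.3% and 56.2% of all genes tested. Of them, 13 were called in EE, 12 in ELS, 9 in both and 11 in neither. At an unadjusted p below 0.05 stood 22 in EE and 23 in ELS. The share of all genes tested at that p in EE and ELS is not given here. In the direction of the SE call, the median log2 fold change was 0.32 in EE and 0.32 in ELS, and it was smaller than in SE for 25 and 21 of 27 genes. The falls were smaller in EE in 20 of 20 genes and in ELS in 16 of 20. The genes were chosen as called in SE, which by itself favours larger values there.

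The mean measured log2 ratio of the called genes to the WT_SE mean, taken per library, showed these differences animal by animal. Over the 7 rises it ranged from 0.71 to 0.87 in the 12 TG libraries of EE and ELS and from -0.13 to 0.09 in the 12 WT libraries. Without ENSRNOG00000010867 and ENSRNOG00000011073, the remaining 5 rises had means from 0.10 to 0.39 in TG and from -0.25 to 0.08 in WT. Over the 20 falls the mean ranged from -0.68 to -0.31 in TG and from -0.22 to 0.22 in WT, and over the 18 falls other than ENSRNOG00000014296 and ENSRNOG00000004179 from -0.50 to -0.17 in TG and from -0.20 to 0.22 in WT. The genotypes did not overlap in EE and ELS for the rises or for the 20 falls, whereas the ranges of the 18 smaller falls overlapped slightly.

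The 4 identified genes also differed between genotypes in the other environments. ENSRNOG00000010867 had mean normalised counts of 65.2 ± 10.5 in WT_EE and 898 ± 168 in TG_EE, and of 69.2 ± 11.9 in WT_ELS and 808 ± 83.8 in TG_ELS (SD, n = 6 each). Over all 3 environments its lowest TG value of 437 was above its highest WT value of 84.7 (18 animals per genotype). ENSRNOG00000011073 ranged from 1470 to 1900 in the 18 WT and from 2170 to 2720 in the 18 TG animals. The falls came nearer to each other between genotypes. ENSRNOG00000014296 ranged from 66.4 to 199 in WT and from 20.7 to 65.2 in TG, and ENSRNOG00000004179 from 80.9 to 228 in WT and from 15.7 to 82.1 in TG. Of the 4 genes, the last was the only one in which a TG animal reached the WT range.

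**Figure D5:**
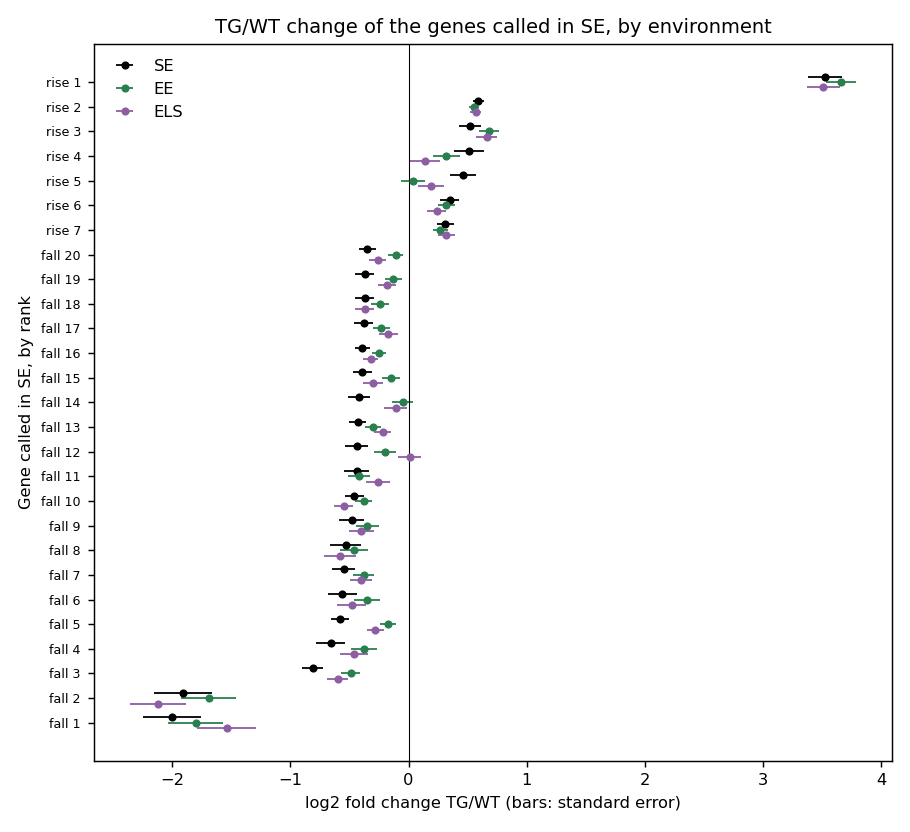
Log2 fold change TG/WT (x axis, bars give the standard error) of the 27 genes called in SE (y axis, by rank) in SE, EE and ELS. All EE points lie on the side of the SE point, and the twelfth fall is the one whose ELS point lies on the other side of 0.

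Whether the TG/WT difference itself changed with the environment was tested as an interaction. With edgeR, 0 genes were called for EE against SE and 0 for ELS against SE, with a smallest adjusted p of 0.472 and 0.999. At an unadjusted p below 0.05 stood 509 genes (4.02%) for EE and 532 (4.20%) for ELS. Among the 27 genes, 7 and 5 were at an unadjusted p below 0.05, and the smallest adjusted p was 0.999 in both. These genes were chosen for their difference in SE, which is part of the interaction. That choice by itself favours small p, so their counts cannot be set against the shares of all genes. DESeq2 with the same surrogate variables also called 0 genes in either test, whereas without surrogate variables it called 19 for EE and 1 for ELS. For EE, edgeR called 8 genes with runs as covariate, 12 with 1 surrogate variable and 0 with no surrogate variables. Without the 5 libraries set apart, edgeR called 0 genes for EE with surrogate variables, with runs and with neither. The result for EE thus depended on the covariates and on the libraries included. A call in SE that was missed in EE or ELS, or in both as for 11 of the 27 genes, is not by itself a difference between environments.

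The thresholds passed through a continuous range of values. The 3 called genes with the largest adjusted p had 0.0842, 0.0842 and 0.0729, with log2 fold changes of 0.51, -0.53 and 0.46. Among uncalled genes that reached the fold threshold, the 3 nearest had adjusted p of 0.116, 0.124 and 0.124, with log2 fold changes of -0.54, -0.53 and 0.36. A log2 fold change of 0.3 or more in either direction was reached by 322 genes and one of at least 1 by 11, of which 27 and 3 were called. With the fold threshold dropped, 42 genes had an adjusted p of at most 0.1.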

How the data were processed

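Libraries were assigned to groups by the genotype and environment in their labels. The authors prepared poly(A)-selected libraries, checked reads with FastQC 0.11.4, aligned them with STAR 2.5.2b to the rat genome of Ensembl with the transgene added, and deposited unnormalized raw counts for each Ensembl gene. The submitters' processing notes also name DESeq2 1.16.1, and the counting program and strand setting are not given in the sources used here.

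The 12657 of 23965 genes whose raw counts averaged 50 or more were fitted in R 4.3.3 with edgeR 4.0.16 (quasi-likelihood test, TMM normalization), with 5 surrogate variables from svaseq (sva 3.50.0, permutation procedure, seed 1; the asymptotic procedure gave 0). Calls required a Benjamini-Hochberg adjusted p not above 0.1 and a log2 fold change of 0.3 or more in either direction. Measured differences are of log2 normalised counts with 0.5 added. Exact permutation tests over the 12 SE libraries, planned for single genes, are not given, since genes chosen for changes with no overlap between groups can only reach the smallest p. Libraries with a first principal component score above 20 were set apart, a limit chosen after the scores were seen. Errors are the SD between 6 animals or the standard error of a fitted fold change.

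The scripts were tested on simulated data. Alternatives were other numbers of surrogate variables, library runs as covariate, only SE libraries, DESeq2 1.42.0, other filters and thresholds, and each SE animal left out. None of the 23965 identifiers was paired with a symbol (0 matches), so the rule for named genes (every called gene with a symbol, members of gene lists, and the 2 genes with the largest change by identifier) could be applied only to identifiers. It named the pair with the largest absolute change, and the other identified genes, one per direction, were chosen after their values were seen. Gene lists, marker genes, genome positions and sequences were not analysed here. Genes that share or overlap sequence could not be told apart. The comparison, lists and tests were chosen with earlier results of these data known.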

Additional observations from a re-analysis of the deposited data

Results flagged for a closer look

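In groups of 6 libraries, the gap between an extreme value and the next was compared with the range of the group, a criterion that chance meets in about 1 in 20 groups. It was met in 3 of 36 sets of values. The first principal component score of 1 WT_EE library was 25.2, and the next highest in that group was 0.4. In TG_EE, 1 library had a score of 28.2, and the next was 0.5. These are the 2 EE libraries that were set apart with WT_SE 2, 5 and 6. In WT_SE itself, where 3 of 6 libraries had such scores, no single library met the criterion. The normalised count of ENSRNOG00000004179 was 227.6 in 1 WT_EE animal, and the next highest in that group was 118.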

How the results depend on the processing

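For TG_SE/WT_SE, against 27 called genes, the count was 83 with no surrogate variables, 119 with 1, 144 with library runs as block (each run holds adjacent TG_SE and WT_SE library numbers, but the labels do not say that a number marks a shared litter, batch or day), 13 with only the 12 SE libraries, 118 with DESeq2 without surrogate variables, 16 with no filter on low counts and 42 with no minimum fold change. It was 16 without the 3 WT_SE libraries set apart, and without all 5 libraries set apart 7 with no surrogate variables and 8 with the run block. Leaving out single SE animals gave 13 to 29. The remaining alternatives gave 20 to 33. For TG_EE/WT_EE (52), no surrogate variables gave 21, 1 gave 30, at least 50 counts in every library 25, a stricter adjusted p (0.05) 29, no fold threshold 129, and the 5 libraries left out 22 with surrogate variables, 30 without and 81 with the run block. For TG_ELS/WT_ELS (17), no surrogate variables gave 9, 2 gave 31, the run block with surrogate variables 10, DESeq2 with surrogate variables 33 and without 30, at least 50 counts in every library 47, no minimum fold change 26, and the run block without the 5 libraries 33. For the interaction with EE (0 genes), 1 surrogate variable gave 12, the run block 8 and DESeq2 without surrogate variables 19. Single animals left out gave 0 to 1 (1 without WT_SE 3). Without the 5 libraries set apart it was 0 with surrogate variables, without them and with the run block. For ELS (0 genes), DESeq2 without surrogate variables gave 1. The log2 fold changes of the 4 identified genes kept their direction and call wherever tested, whereas that of the fifth rise was negative in 6 of 32 fits, from -0.29 to -0.20. The causes were not tested. With 6 animals per group, changes near the fold threshold depended on the covariates chosen.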
